A study of Mus musculus with 10 samples.

Results

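The genes described here are 39 genes that are read as marks of a dividing cell, 17 of DNA replication in S phase and 22 of mitosis. They were chosen by name from general knowledge of the cell cycle, with earlier results of these data known. All 39 were found in both deposited tables, which hold 27998 genes for the E14Tg2a line and 32285 genes for the R1 line. E14Tg2a is a wild-type mouse embryonic stem cell (ESC) line. Its 8 droplet-based scRNA-seq libraries are ESC in serum-free medium with MEK and GSK3β inhibitors and LIF (2i ESC), ESC in serum plus LIF (S+L ESC), epiblast-like cells (EpiLC) after 1, 2 and 3 days of Activin A, bFGF and knockout serum replacement, epiblast stem cells (EpiSC) kept in Activin A and bFGF, and embryoid bodies (EB) made from d2 EpiLC and grown for 2 or 4 days with BMP4, SCF, LIF and EGF. Part of the EB cells become primordial germ cell-like cells (PGCLC), and the study listed the barcodes of 91 such cells in d2 EB and 44 in d4 EB. The other 2 libraries are d4 EB from parental R1 ESC (WT) and from an R1 line in which the histone methyltransferases MLL3 and MLL4 (*Kmt2c* and *Kmt2d*) carry mutations that remove their catalytic activity (dCD). The mutations are amino acid substitutions, which gene counts cannot show, so this label was not checked.

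Before S phase, a cell loads the MCM helicase (*Mcm2* to *Mcm7*) on its replication origins, with the loading factors CDC6 and CDT1. In S phase it fires them with CDC45 and the GINS complex. Nucleotides are supplied by ribonucleotide reductase (*Rrm1*, *Rrm2*) and thymidylate synthase (*Tyms*), while the sliding clamp PCNA, the nuclease FEN1 and the uracil glycosylase UNG act at or behind the fork and SLBP binds histone mRNA. Transcripts of this kind accumulate around the start of S phase under E2F factors. Transcripts for mitosis accumulate later, in G2 and M phase, under NF-Y, B-MYB and FOXM1. They code for cyclin B and CDK1, the mitotic kinases, the spindle checkpoint, kinetochore proteins, spindle motors and the destruction machinery of CDC20 and UBE2C. Pluripotent cells divide quickly, with a short G1 phase, and many cells lengthen or leave the cycle when they differentiate.

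Promoters of cell cycle genes carry short elements that these factors bind, and 6 promoters are shown because the groups differ in them. In the RefSeq promoter table of GRCm38.p6, which gives 250 bases before and 50 bases after a start, 35 of the 39 members had an entry. Both strands were searched for CCAAT (bound by NF-Y), for the cell cycle genes homology region (CHR) spelled TTTGAA or with a C in its middle as TTCGAA, and for the E2F letters TTTCCCGC or the variant TTTGGCGC, and no match of one element overlapped a match of another in the members. The CHR letters were found at 16 of 20 mitosis genes and at 4 of 15 S phase genes, beside 21.7% of all 27025 genes of the table. CCAAT was found at 17 of 20 mitosis genes and 10 of 15 S phase genes, beside 41.1% of all genes. The E2F letters were found at 6 of 15 S phase genes and 0 of 20 mitosis genes, beside 1.798% of all genes. A match is only a run of letters in this window and shows no binding. The 160 bases before the start are printed for 3 S phase genes and 3 mitosis genes with matches there, 5′ to 3′ on the strand of the gene, with every match in capitals. An element on the other strand appears as its reverse complement.
Mcm6, chr1:128359706-128359865, minus strand: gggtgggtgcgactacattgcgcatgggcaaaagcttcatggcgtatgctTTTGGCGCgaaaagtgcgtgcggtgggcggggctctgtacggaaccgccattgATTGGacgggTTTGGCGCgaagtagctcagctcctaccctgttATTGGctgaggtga
Mcm5, chr8:75109349-75109508, plus strand: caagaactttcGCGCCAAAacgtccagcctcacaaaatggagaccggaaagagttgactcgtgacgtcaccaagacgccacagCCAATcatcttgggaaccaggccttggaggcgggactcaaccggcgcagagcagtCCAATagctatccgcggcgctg
Cdc6, chr11:98907991-98908150, plus strand: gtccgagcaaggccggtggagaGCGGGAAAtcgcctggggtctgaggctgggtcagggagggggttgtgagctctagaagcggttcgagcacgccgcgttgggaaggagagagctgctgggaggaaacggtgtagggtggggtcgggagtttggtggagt
Top2a, chr11:99024190-99024349, minus strand: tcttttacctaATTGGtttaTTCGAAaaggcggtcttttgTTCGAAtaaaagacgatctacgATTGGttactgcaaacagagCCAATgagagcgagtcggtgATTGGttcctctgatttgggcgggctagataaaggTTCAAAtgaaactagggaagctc
Ccnb2, chr9:70421555-70421714, minus strand: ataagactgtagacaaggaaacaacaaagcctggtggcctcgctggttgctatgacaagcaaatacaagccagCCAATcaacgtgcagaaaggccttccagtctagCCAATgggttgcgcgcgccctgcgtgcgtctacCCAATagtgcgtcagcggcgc
Kif11, chr19:37376222-37376381, plus strand: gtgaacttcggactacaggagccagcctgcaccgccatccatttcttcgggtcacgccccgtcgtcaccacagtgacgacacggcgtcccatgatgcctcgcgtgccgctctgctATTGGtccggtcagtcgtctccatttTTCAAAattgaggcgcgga

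Before the start of *Mcm6* stood 2 E2F and 2 CCAAT matches, and *Mcm5* had 1 E2F and 2 CCAAT matches. In the printed bases *Top2a*, the topoisomerase that resolves sister chromatids, had 4 CCAAT and 3 CHR matches, and *Kif11*, a spindle motor, had 1 of each. *Ccnb2* (cyclin B2) had 3 evenly spaced CCAAT matches, which began at bases -87, -54 and -21 from the start, and its CHR letters lay outside the printed bases, at -167 and 5. *Cdc6* had 1 E2F match.

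There were 2782 cells of E14Tg2a and 3115 cells of R1, with median UMIs per cell from 21658 (d4 EB) to 36750 (d1 EpiLC) in E14Tg2a, and of 13187.5 in WT and 11751 in dCD. Each condition was 1 library, so no test was made, since condition and library cannot be told apart. A share is the UMIs of a gene group over all UMIs of a set of cells, and CPM are UMIs of a gene per 1000000 UMIs. Intervals are exact 95% Poisson intervals, for ratios exact conditional ones, and cover counting error only, not the spread between cultures. The tables were made separately, so levels of R1 and E14Tg2a are given side by side and not compared.

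The share of S phase UMIs was highest in early EpiLC and lowest in d3 EpiLC and S+L ESC. It was 0.133% (0.131% to 0.135%) in 2i ESC and 0.102% (0.1001% to 0.104%) in S+L ESC, 0.177% (0.174% to 0.179%), 0.167% (0.165% to 0.169%) and 0.1001% (0.0985% to 0.102%) in d1, d2 and d3 EpiLC, 0.138% (0.136% to 0.1395%) in EpiSC, and 0.116% (0.114% to 0.118%) and 0.111% (0.108% to 0.113%) in d2 and d4 EB. The intervals of d3 EpiLC and S+L ESC overlapped, and all other neighbors in this order were separated by more than counting error. The mitosis share followed another order. It was 0.223% (0.219% to 0.226%) in 2i ESC and 0.223% (0.2197% to 0.226%) in S+L ESC, 0.277% (0.274% to 0.2798%), 0.249% (0.246% to 0.252%) and 0.241% (0.238% to 0.243%) in d1, d2 and d3 EpiLC, 0.261% (0.258% to 0.264%) in EpiSC, and 0.186% (0.184% to 0.188%) and 0.181% (0.178% to 0.183%) in d2 and d4 EB. The 2 EB libraries were thus lowest for mitosis, and 2i ESC and S+L ESC had overlapping intervals. Mitosis UMIs per S phase UMI were fewest in d2 EpiLC, at 1.49, and most in S+L ESC and d3 EpiLC, at 2.18 and 2.41. In R1 d4 EB the S phase share was 0.178% (0.176% to 0.179%) in WT and 0.2002% (0.198% to 0.202%) in dCD, and the mitosis share 0.304% (0.302% to 0.307%) and 0.409% (0.406% to 0.411%).

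**Figure D1:**
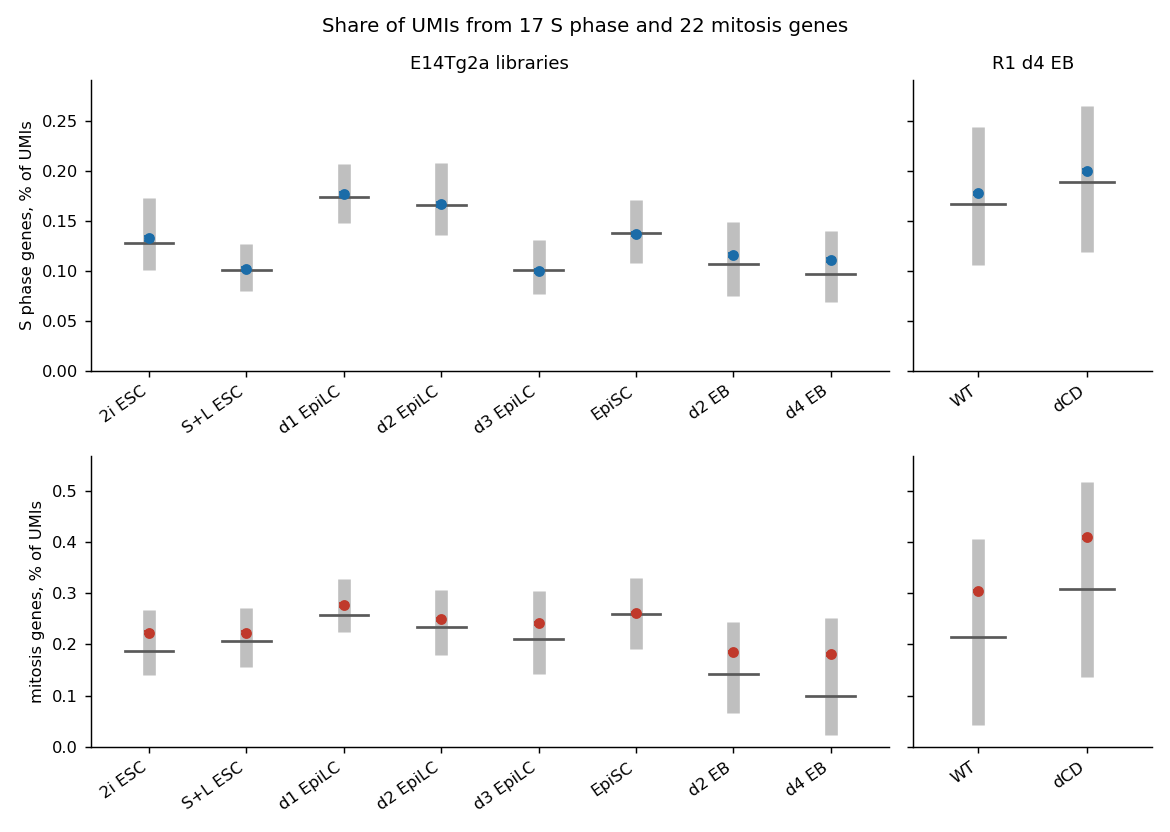
Share of UMIs (%) from the 17 S phase genes (top) and the 22 mitosis genes (bottom) in each library. Points are shares over all cells, with 95% counting intervals narrower than the points, gray bars run from the lower to the upper quartile of single cells and the line is the median cell. The median cell of d4 EB had a mitosis share of 0.09897%, well below its pooled share of 0.181%.

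Among S phase members, the MCM genes made up a common pattern, and 7 of the 17 members were highest in d2 EpiLC, 7 in d1 EpiLC and 3 in EpiSC. *Mcm2* (ENSMUSG00000002870, chr6:88883474-88898780), a helicase subunit, had CPM of 81.9 in 2i ESC and 60.8 in S+L ESC, 111, 133 and 65.9 in d1, d2 and d3 EpiLC, 87.1 in EpiSC, and 58.98 and 47.3 in d2 and d4 EB. *Mcm5*, another subunit, had CPM of 102 in 2i ESC and 86.9 in S+L ESC, 129.8, 129.6 and 64.5 in d1, d2 and d3 EpiLC, 117 in EpiSC, and 77.7 and 74.97 in d2 and d4 EB. Both were higher in d1 and d2 EpiLC than in any other library, and both were lower in d3 EpiLC than in 2i ESC. *Mcm3*, *Mcm4*, *Mcm6* and *Mcm7* had their highest values in d2 EpiLC too, at 128, 67.1, 123 and 124 CPM, and their lowest in d3 EpiLC or d4 EB, at 62.1, 43.3, 63.5 and 67.1 CPM. The highest and second highest interval overlapped for *Mcm3*, *Mcm4*, *Mcm5* and *Mcm7*.

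Genes of nucleotide supply differed in their range. *Rrm2* (ENSMUSG00000020649, chr12:24708241-24714146), the regulatory subunit of ribonucleotide reductase, had CPM of 158 in 2i ESC and 98.98 in S+L ESC, 259, 199 and 77.9 in d1, d2 and d3 EpiLC, 149 in EpiSC, and 104 and 106 in d2 and d4 EB, the largest span of the S phase members at 3.32-fold. *Tyms*, thymidylate synthase, had CPM of 102 in 2i ESC and 51.96 in S+L ESC, 111, 113 and 53.3 in d1, d2 and d3 EpiLC, 84.7 in EpiSC, and 89.6 and 94.7 in d2 and d4 EB. Both were lowest in d3 EpiLC and S+L ESC and high in d1 and d2 EpiLC. *Rrm1*, the large reductase subunit, ran from 36.5 CPM in S+L ESC to 73.5 CPM in d2 EpiLC. Of the loading and firing factors, *Cdt1* ran from 43.3 CPM in d4 EB to 100.5 CPM in d1 EpiLC, *Gins2* from 74.3 CPM in S+L ESC to 115 CPM in d1 EpiLC, and the low genes *Cdc6* and *Cdc45* from 10.5 to 23.9 CPM and from 7.601 to 21.2 CPM. *Cdc45* was above its 2i ESC level in both EB libraries, at 16.1 and 18.5 against 12.6 CPM, as were *Slbp*, *Gins2*, *Rrm1*, *Pcna*, *Fen1* and, by little, *Mcm4*.

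*Ung* (ENSMUSG00000029591, chr5:114130386-114139323), the glycosylase that removes uracil from DNA, had CPM of 126 in 2i ESC and 103 in S+L ESC, 171, 105 and 72.9 in d1, d2 and d3 EpiLC, 87.7 in EpiSC, and 67.7 and 56.2 in d2 and d4 EB. It was high in 2i ESC and d1 EpiLC and lowest in d4 EB. *Pcna*, *Fen1* and *Slbp* were highest in EpiSC, at 65.8, 52.98 and 158 CPM, and lowest in d3 EpiLC for *Pcna* (35.6 CPM) and in S+L ESC for *Fen1* and *Slbp* (26.4 and 83.1 CPM). *Slbp* stayed high in EB, with 147 CPM in d2 EB and 158 CPM in d4 EB. The pseudogene *Pcna-ps2* was counted apart with 587 UMIs in E14Tg2a, beside 4878 of *Pcna*, so the split of reads between them is uncertain. Pseudogenes of *Ccnb1*, *Ccnb2* and *Tyms* are annotated too.

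**Figure D2:**
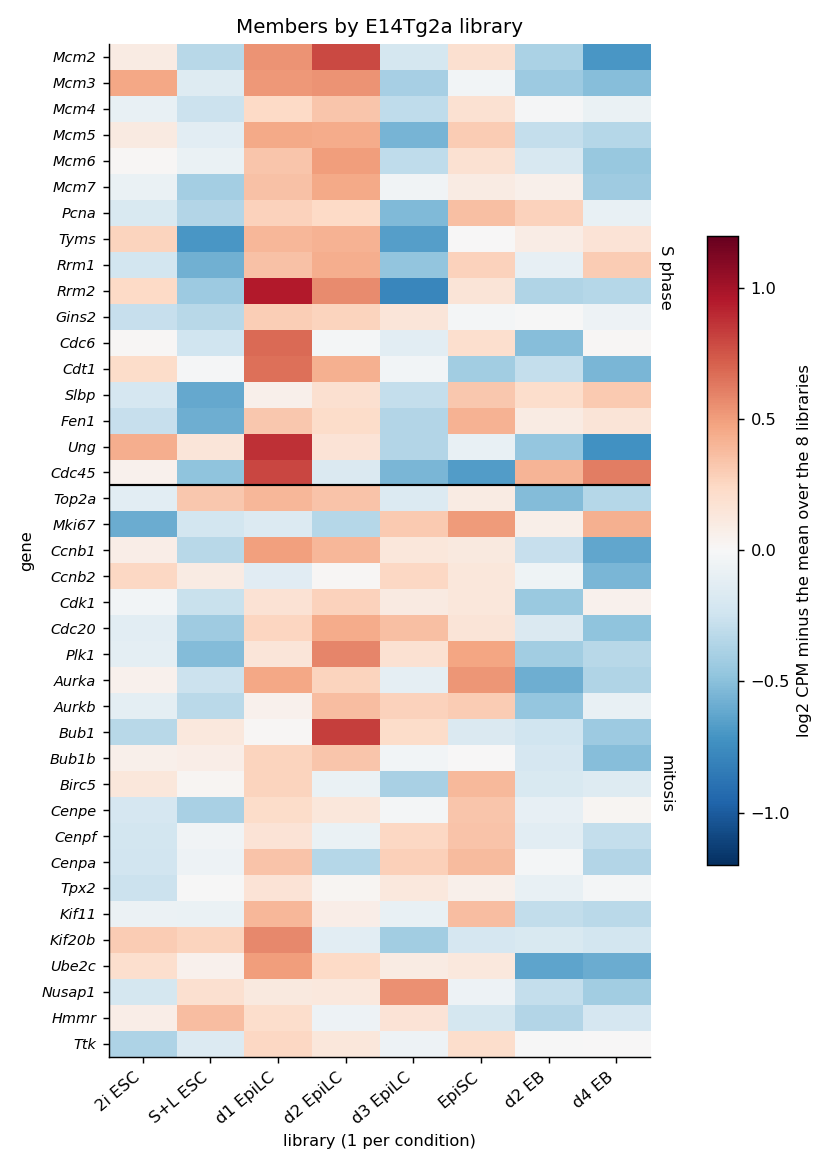
Level of each member in the 8 E14Tg2a libraries, as log2 CPM minus the mean over the libraries (red above, blue below), with S phase genes above the black line and mitosis genes below it. The d1 and d2 EpiLC columns are red for most S phase genes, and the d3 EpiLC and S+L ESC columns are mostly blue.

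Mitosis members differed less between libraries, with a median span of 1.79-fold from the lowest to the highest library, beside 2.01-fold for S phase members. Of the 22, 9 were lowest in d4 EB and 6 in d2 EB. *Ube2c* (ENSMUSG00000001403, chr2:164769898-164778822), the ubiquitin-conjugating enzyme of the anaphase-promoting complex, had CPM of 386 in 2i ESC and 347 in S+L ESC, 475, 394 and 359 in d1, d2 and d3 EpiLC, 366 in EpiSC, and 216 and 222 in d2 and d4 EB, with both EB libraries far below the rest. *Ccnb1* (cyclin B1) had CPM of 131 in 2i ESC and 98.1 in S+L ESC, 174, 162 and 135 in d1, d2 and d3 EpiLC, 134 in EpiSC, and 102 and 79.97 in d2 and d4 EB and was lowest in d4 EB. Its partner kinase gene *Cdk1* did not share that low point, with 80.7 CPM in d2 EB and 114 CPM in d4 EB. *Ccnb2* was highest in 2i ESC and d3 EpiLC, at 141 and 141 CPM, and lowest in d4 EB at 81.4 CPM.

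The mitotic kinases *Plk1*, *Aurka* and *Aurkb* ran from 35.2 to 75.7, from 35.6 to 77.2 and from 29.6 to 52.8 CPM. The checkpoint kinase gene *Bub1* had CPM of 23.6 in 2i ESC and 32.5 in S+L ESC, 30.1, 53.1 and 34.6 in d1, d2 and d3 EpiLC, 26.5 in EpiSC, and 25.3 and 21.97 in d2 and d4 EB, so that d2 EpiLC stood above every other library. Its relatives in the checkpoint, *Bub1b* and *Ttk*, spanned 30.5 to 55.04 and 11.8 to 18.1 CPM. For the kinetochore genes *Cenpe*, *Cenpf* and *Cenpa*, which codes for the centromeric histone H3, the highest library was EpiSC at 64.96, 172 and 324 CPM. *Birc5* (survivin), a subunit of the chromosomal passenger complex with Aurora B, had its lowest value in d3 EpiLC (191 CPM) and its highest in EpiSC (328 CPM).

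Spindle genes had patterns of their own. The microtubule-bundling *Nusap1* was highest in d3 EpiLC at 104 CPM against 53.4 CPM in d4 EB, and *Hmmr* was highest in S+L ESC at 71.96 CPM against 43.7 CPM in d2 EB. The motor genes *Kif11* and *Kif20b* were highest in d1 EpiLC, at 36.4 and 50.8 CPM, and the spindle assembly factor *Tpx2* varied least of all members, from 59.5 to 79.7 CPM. *Mki67*, whose product coats mitotic chromosomes, was lowest in 2i ESC and highest in EpiSC and d4 EB (25.8, 55.8 and 52.5 CPM), and *Top2a* and *Cdc20*, the activator of the anaphase-promoting complex, were highest in d1 and d2 EpiLC at 290.2 and 171 CPM.

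From 2i ESC to d2 EpiLC, the stage at which cells can be induced to PGCLC, the S phase share was higher by a factor of 1.26 (95% interval 1.23 to 1.29) and the mitosis share by 1.12 (95% interval 1.098 to 1.14). On CPM plus 1, 2 S phase genes (*Mcm2* and *Rrm1*) and 2 mitosis genes (*Bub1* and *Plk1*) were at least 1.5-fold higher, while 31.3% of the 12821 genes with at least 10 UMIs were, and 0 members were as much lower, beside 12.2%. The median log2 ratio was 0.39 for S phase and 0.27 for mitosis members, beside 0.27 for all genes, so relative to that shift the mitosis members were level. Centred on the median of all genes, 1 member was 1.5-fold higher and 1 lower, in place of 4 and 0, and the shares of all genes were not counted after centring. *Bub1* rested on 592 and 207 UMIs and had a ratio of 2.25 (95% interval 1.91 to 2.64). Mitochondrial and ribosomal protein genes took 43.4% of the UMIs of 2i ESC and 38.05% of d2 EpiLC, and with these left out of the total the S phase ratio was 1.15 and the mitosis ratio 1.02.

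One day later, in d3 EpiLC, all 17 S phase members were lower than in d2 EpiLC. The S phase share was 0.5997 (95% interval 0.587 to 0.613) times that of d2 EpiLC, and 9 of 17 members were at least 1.5-fold lower, beside 12.5% of 13240 genes. The median log2 ratio of the S phase members was -0.62, against -0.02 for all genes. *Rrm2* had a ratio of 0.392 (95% interval 0.364 to 0.421), *Tyms* of 0.473 (95% interval 0.432 to 0.518), *Mcm2* of 0.496 (95% interval 0.457 to 0.539) and *Mcm5* of 0.498 (95% interval 0.458 to 0.541). *Cdc6* and *Gins2* were closest to level, at 0.932 (95% interval 0.753 to 1.16) and 0.922 (95% interval 0.855 to 0.995). The mitosis share hardly moved, with a ratio of 0.969 (95% interval 0.953 to 0.984) that turned to 1.04 without mitochondrial and ribosomal protein genes in the total. Among mitosis genes *Mki67* and *Cenpa* were at least 1.5-fold higher, beside 12.2% of all genes, and *Bub1* was as much lower.

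In S+L ESC, which differ from 2i ESC in culture medium, all 17 S phase members were lower than in 2i ESC, with a share ratio of 0.768 (95% interval 0.748 to 0.789) and a median log2 ratio of -0.30, beside 0.10 for all genes. *Tyms* at 0.511 (95% interval 0.458 to 0.5695), *Rrm2* at 0.625 (95% interval 0.576 to 0.678) and *Mcm3* at 0.652 (95% interval 0.595 to 0.716) were at least 1.5-fold lower, which makes 3 of 17, beside 8.92% of 12600 genes. The mitosis share ratio was 1.001 (95% interval 0.982 to 1.02), and 0 mitosis members were 1.5-fold higher, beside 21.7%. *Top2a* and *Bub1* were the highest of them, at 1.37 (95% interval 1.29 to 1.46) and 1.37 (95% interval 1.15 to 1.64), and *Ccnb1* and *Plk1* the lowest, at 0.751 (95% interval 0.689 to 0.818) and 0.754 (95% interval 0.653 to 0.872). The comparisons that share d2 EpiLC or 2i ESC are not independent of each other.

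Between d2 and d4 EB the pooled shares were close, with ratios of 0.952 (95% interval 0.929 to 0.975) for S phase and 0.972 (95% interval 0.954 to 0.991) for mitosis. The mitosis direction was not firm, since the median member had a ratio of 1.01. No member was 1.5-fold higher, beside 20.7% of 13813 genes, or lower, beside 8.43%, and the median log2 ratio was -0.05 for S phase and 0.02 for mitosis members, beside 0.11 for all genes. Centred on the latter, 2 members were 1.5-fold lower and 0 higher, and the shares of all genes were not counted after centring. *Cdk1* and *Cdc6* lay highest, at 1.41 (95% interval 1.297 to 1.53) and 1.44 (95% interval 1.14 to 1.81), and *Ccnb2* and *Mcm7* lowest, at 0.71 (95% interval 0.651 to 0.773) and 0.7103 (95% interval 0.646 to 0.7805).

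The cells behind these shares were distributed very differently. For this, every cell was thinned to 15374 UMIs in E14Tg2a and 6831 in R1, and shallower cells were left out (4 to 37 cells of an E14Tg2a library, 50 of WT and 170 of dCD). Cells with fewer than 5 mitosis UMIs were 0 of 223 in 2i ESC, 0 of 267 in d1 EpiLC, 0 of 283 in d2 EpiLC and 0 of 389 in d3 EpiLC, where 0 cells allow shares of up to 1.64%, 1.37%, 1.29% and 0.944% (exact binomial). They were 0.341% (0.00864% to 1.89%) in S+L ESC and 1.66% (0.612% to 3.58%) in EpiSC. In d2 EB they were 11.2% (8.596% to 14.2%) and in d4 EB 30.5% (25.6% to 35.8%). Differentiated aggregates thus held cells nearly without mitosis transcripts, which the stem cell and EpiLC libraries had at most rarely. With limits of 3 and 10 UMIs, chosen after seeing the data, the d4 EB share was 18.1% and 42.6%, the d2 EB share 5.59% and 21.6%, and the 2i ESC share 0% and 2.24%. From 3 to 7 mitosis UMIs, near the limit, were 70 cells of d4 EB and 64 of d2 EB.

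**Figure D3:**
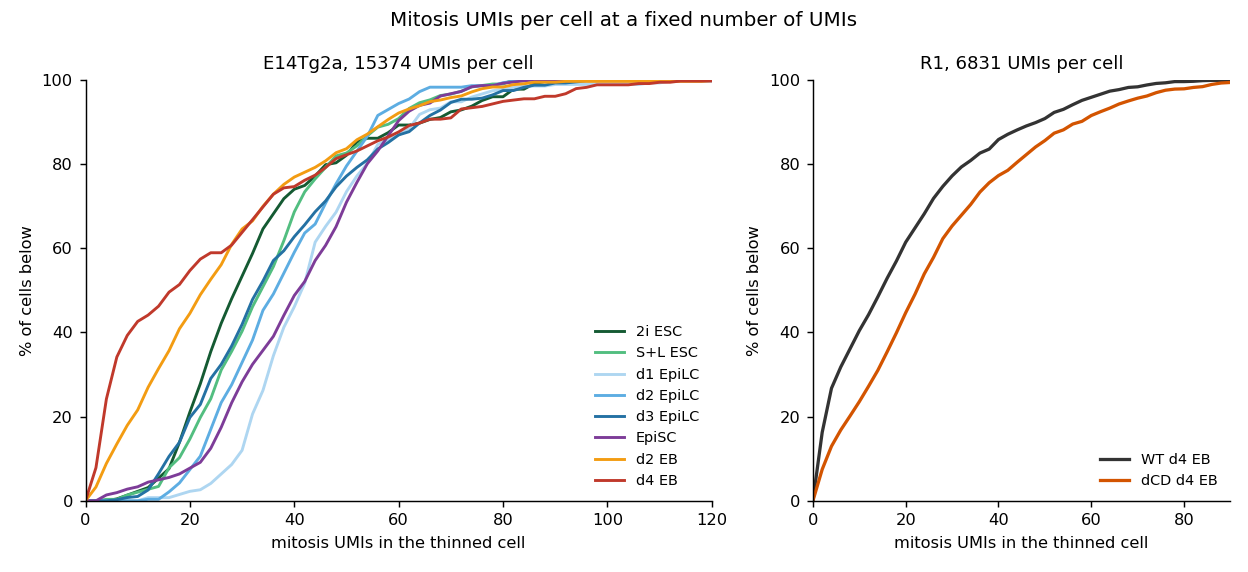
Percent of cells (y) with fewer mitosis UMIs than the value on x, after thinning every cell to the same number of UMIs, for the 8 E14Tg2a libraries (left) and R1 d4 EB (right). The d4 EB curve rises steeply at the left, where 30.5% of cells lie below 5 UMIs, and the WT curve lies above the dCD curve.

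S phase UMIs did not separate these cells in the same way. In d4 EB the median number of S phase UMIs per thinned cell was 15 in the low-mitosis cells and 15 in the others, while in d2 EB it was 9 and 17. Low-mitosis cells were shallower before thinning, with 19468 against 25015.5 median UMIs in d4 EB. UMIs per cell rose with the mitosis share in d4 EB (Pearson r of 0.282 over 368 cells, which share 1 library) and d2 EB (0.294). Among d2 PGCLC they did not (-0.081), while among the 44 d4 PGCLC r was 0.489. The part of depth was not tested. The variance of mitosis UMIs over their mean was 5.06 in d2 EpiLC, 5.67 in d1 EpiLC, 6.21 in EpiSC, 6.85 in S+L ESC, 9.55 in d3 EpiLC, 10.2 in 2i ESC, 15.9 in d2 EB and 27.6 in d4 EB. In d4 EB the top 10% of cells held 32.99% of all mitosis UMIs, and in d2 EpiLC 16.6%.

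Within each EB library, the listed PGCLC were set against the remaining cells. The study took them from clusters of these same cells that were rich in PGC genes, and the clustering may have used the members, so the values describe the listed cells. Mitosis genes took a larger share in PGCLC on both days, while S phase genes had no firm direction. The mitosis share was 0.207% (0.202% to 0.212%) in d2 PGCLC and 0.1805% (0.178% to 0.183%) in other d2 EB cells, a ratio of 1.15 (95% interval 1.11 to 1.18), and 0.249% (0.239% to 0.258%) in d4 PGCLC and 0.172% (0.1695% to 0.175%) in other d4 EB cells, a ratio of 1.44 (95% interval 1.39 to 1.505). Over the alternatives the ratio ran from 1.08 to 1.29 on d2 and from 1.28 to 1.82 on d4. The S phase share had ratios of 0.957 (95% interval 0.921 to 0.994) on d2 and 0.857 (95% interval 0.802 to 0.914) on d4, but without mitochondrial and ribosomal protein genes in the total these turned to 1.05 and 1.08, and the mean over cells gave 1.01 on d2, so no direction can be given. Such genes took 45.2% of UMIs in d2 PGCLC and 40.1% in other d2 EB cells, and 49.7% and 36.7% on d4.

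On d2, 3 of 22 mitosis members (*Aurka*, *Cenpf* and *Ube2c*) were at least 1.5-fold higher in PGCLC, beside 12.5% of 12539 genes, and 2 (*Cdk1* and *Birc5*) as much lower, beside 21.9%. On d4, 12 of 22 were at least 1.5-fold higher, beside 14.7% of 12378 genes, and *Mki67* was as much lower, beside 45.3%. The median log2 ratio of the mitosis members was 0.21 on d2 and 0.72 on d4, beside -0.11 and -0.46 for all genes and -0.37 on d4 for the 7378 genes with a mean of at least 10 CPM. Relative to the median of all genes, 18 of the 39 members of both groups were 1.5-fold higher and 2 lower on d4, in place of 13 and 5, and 5 higher and 2 lower on d2, in place of 4 and 4. The shares of all genes were not counted after this centring, so the centred counts have none to be read against. Of the 22 mitosis genes, 15 were above 1 on both days, 4 were below 1 on both, and 3 changed side. The intervals excluded 1 on both days in the same direction for 9 genes, of which *Birc5* was lower and the rest higher. These counts over both days were not made for all genes, so they have no share to be read against.

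*Ube2c* had 296 CPM in d2 PGCLC and 196 in other d2 EB cells, and 404 and 199.7 on d4. *Cenpf*, a large kinetochore protein, had 178 and 110.5 CPM on d2 and 195 and 101 on d4. *Aurka*, the kinase of spindle poles, had 53.9 and 31.1 CPM on d2 and 75.9 and 37.2 on d4. These 3 genes were higher in PGCLC on both days. *Ccnb1* had ratios of 1.49 (95% interval 1.33 to 1.68) and 1.81 (95% interval 1.49 to 2.17), *Ccnb2* of 1.04 (95% interval 0.921 to 1.17) and 1.99 (95% interval 1.66 to 2.38), and *Cdc20* of 1.13 (95% interval 1.001 to 1.27) and 1.85 (95% interval 1.55 to 2.2), so that cyclin B2 and CDC20 stood out on d4 more than on d2, a difference that was not tested. The 4 members below 1 on both days were *Birc5*, at 0.656 (95% interval 0.593 to 0.725) and 0.797 (95% interval 0.683 to 0.924), *Cdk1*, at 0.616 (95% interval 0.518 to 0.729) and 0.899 (95% interval 0.731 to 1.096), *Mki67*, at 0.997 (95% interval 0.809 to 1.22) and 0.586 (95% interval 0.401 to 0.831), and *Plk1*, at 0.855 (95% interval 0.68 to 1.06) and 0.963 (95% interval 0.679 to 1.33). The 3 that lay on opposite sides of 1 on the 2 days were *Tpx2*, at 0.893 and 1.27, *Aurkb*, at 0.947 and 1.21, and *Ttk*, at 1.22 and 0.853, and none of these had intervals that excluded 1 on both days.

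**Figure D4:**
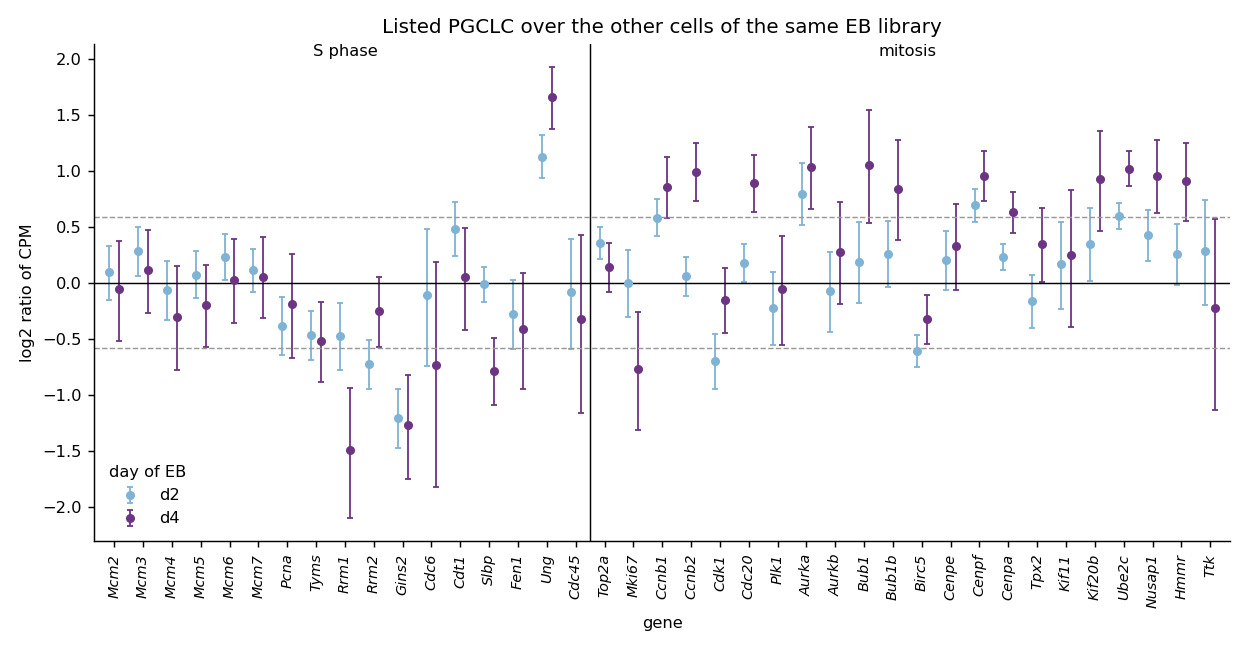
Log2 ratio of CPM in listed PGCLC over the other cells of the same EB library for each member, light for d2 (91 against 446 cells) and dark for d4 (44 against 324 cells), with 95% counting intervals and dashed lines at 1.5-fold. Most mitosis genes lie above 0 on d4, *Ung* stands above the other S phase genes on both days, and the lowest S phase gene is *Gins2* on d2 and *Rrm1* on d4.

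The S phase members pulled in opposite directions in PGCLC. *Ung* was higher, with 119 against 54.7 CPM on d2 and 143 against 45.5 CPM on d4, ratios of 2.18 (95% interval 1.91 to 2.49) and 3.15 (95% interval 2.59 to 3.81), and was the only S phase member at least 1.5-fold higher on either day, beside 12.5% and 14.7% of all genes. *Gins2* (ENSMUSG00000031821, chr8:120578633-120589304), of the GINS complex, was lower, with 45.7 against 106 CPM and 39.8 against 96.3 CPM. *Rrm1* had 38.5 against 53.6 CPM on d2 and 25.6 against 72.1 CPM on d4, the latter from 27 UMIs. At least 1.5-fold lower were 2 of 17 on d2 (*Rrm2* and *Gins2*) and 4 of 17 on d4 (*Rrm1*, *Gins2*, *Cdc6* and *Slbp*), beside 21.9% and 45.3% of all genes, the *Cdc6* value from 10 UMIs with an interval that includes 1. The 6 MCM genes lay between 0.954 and 1.21 on d2 and between 0.811 and 1.08 on d4, and all intervals included 1 except those of *Mcm3* and *Mcm6* on d2. Medians of the log2 ratio were -0.07 on d2 and -0.25 on d4, above those of all genes.

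Clusters of EB cells, made without the members, showed which cells carried little mitosis RNA. In d2 EB, the extraembryonic mesoderm-like cluster of 380 cells, led by *Hoxc8*, *Pitx1*, *Hoxc9*, *Hoxa9* and *Ramp2*, had a mitosis share of 0.165%, the PGC-like cluster of 98 cells 0.197% and the extraembryonic ectoderm-like cluster of 59 cells 0.255%. The extraembryonic ectoderm-like cells also had the highest S phase share, 0.143% against 0.111% and 0.111% in the other clusters, and a deeper median of 35770 UMIs against 23294 and 26834. In d4 EB the extraembryonic mesoderm-like cluster of 253 cells, led by *Ptn*, *Pitx1*, *Col3a1*, *Gal* and *Igfbp7*, had 0.159%. The cluster of 49 cells that held all 44 listed PGCLC had 0.223%, with globin genes in the lead. As this cluster also held unlisted cells, its values are not those of the listed PGCLC alone, and globin UMIs were not split between them. It was left unnamed, since none of the PGC markers was among its 10 leading genes, although 7 of 7 were at least 2-fold higher. The extraembryonic ectoderm-like and endothelium-like clusters of 37 and 29 cells had 0.207% and 0.194%.

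Cells with fewer than 5 mitosis UMIs were 39.3% (32.9% to 46.01%) of the mesoderm-like cells of d4 EB and 16.3% (6.805% to 30.7%) of the cluster with the listed PGCLC. The extraembryonic ectoderm-like and endothelium-like clusters held 8.11% and 11.1%, from 3 such cells each. In d2 EB the mesoderm-like cluster held 14.2%, the PGC-like cluster 6.38% and the extraembryonic ectoderm-like cluster 0 of 59, which allows up to 6.06%. Of the d4 low-mitosis cells, 88 of 101 were mesoderm-like, beside 224 of all 331 d4 EB cells kept after thinning. Among the listed PGCLC they were 5.495% (1.81% to 12.4%) on d2 and 10.5% (2.94% to 24.8%) on d4, and among the other cells 12.4% (9.41% to 15.9%) and 33.1% (27.7% to 38.8%). The median UMIs per cell before thinning were 24558 in d4 PGCLC and 21488 in the other d4 cells.

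In d4 EB of the R1 line, dCD cells had larger shares of both groups than WT cells. The S phase share had a ratio of 1.13 (95% interval 1.11 to 1.14) and the mitosis share of 1.34 (95% interval 1.33 to 1.36). All 22 mitosis members and 15 of 17 S phase members had more CPM in dCD. At least 1.5-fold higher were *Ube2c*, *Ccnb2* and *Aurkb* of the mitosis genes and *Cdt1* of the S phase genes, which makes 3 of 22 and 1 of 17, beside 15% of 16272 genes, and 0 were as much lower, beside 9.78%. The median log2 ratio was 0.46 for mitosis and 0.16 for S phase members, beside 0.03 for all genes. The shift was thus broad and small for each gene.

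*Ube2c* had 228 CPM in WT and 376 in dCD, a ratio of 1.65 (95% interval 1.59 to 1.71). *Ccnb2* had 84.3 CPM in WT and 138 in dCD, and *Aurkb*, the kinase of the passenger complex, 42.3 CPM in WT and 67.8 in dCD. *Top2a* had 507 CPM in WT and 651 in dCD, *Cenpf* 278 CPM in WT and 348 in dCD and *Mki67* 164 CPM in WT and 204 in dCD. The lowest ratios of mitosis genes were *Birc5* at 1.08 (95% interval 1.03 to 1.12) and *Kif20b* at 1.14 (95% interval 1.08 to 1.21). Of the S phase members, *Cdt1* had 41.4 CPM in WT and 65.5 in dCD, *Mcm3* 149.5 CPM in WT and 217 in dCD and *Mcm2* 79.1 CPM in WT and 108 in dCD. The reductase and synthase genes did not go with them, with ratios of 1.001 (95% interval 0.954 to 1.05) for *Rrm1*, 0.9005 (95% interval 0.863 to 0.939) for *Rrm2* and 1.05 (95% interval 0.994 to 1.11) for *Tyms*, and *Slbp* was at 0.932 (95% interval 0.888 to 0.979).

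Low-mitosis cells, with fewer than 5 mitosis UMIs of 6831, were 29.6% (27.2% to 32.1%) of WT and 14.8% (13.1% to 16.7%) of dCD cells. With limits of 3 and 10 UMIs they were 22.2% and 40.4% of WT and 10.5% and 23.5% of dCD, and 190 WT and 148 dCD cells had 3 to 7. Free RNA in the droplets was not removed and its part was not tested. In these cells the median S phase count was 6 UMIs in both libraries, beside 13 and 14 in the other WT and dCD cells. Low-mitosis cells were shallower before thinning, with 11930 against 14537 median UMIs in WT and 9264 against 12987 in dCD. Of the dCD cells, 170 of 1699 fell under the thinning depth and of the WT cells 50 of 1416. How many of these left-out cells were low in mitosis UMIs was not counted. The median cell of dCD was shallower, and its share of mitochondrial and ribosomal protein UMIs was 30.4%, against 26.4% in WT.

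Cells of WT and dCD fell largely into different clusters, and the part of this in the comparison was not tested. Of 11 clusters made without the members, cluster 1 (led by *Hba-x*, *Hbb-y*, *Hbb-bh1*, *Rhox9* and *Rhox6*) had 563 dCD and 18 WT cells, cluster 3 (with *Six2*, *Nkx2-5*, *Cntnap5a* and *Bcl11a* among its leading genes) 483 and 5, and cluster 6 (*Fam25c*, *Gm13580*, *Ooep*, *Ttn*, *Lrrc31*) 297 and 2. Cluster 2 (*Col3a1*, *Adamts2*, *Lum*, *Wfikkn1*, *Itga4*) had 35 dCD and 538 WT cells, and the extraembryonic mesoderm-like cluster 4 (*Tbx4*, *Pitx1*, *Gal*, *Wnt2*, *Phlda2*) 0 and 364. A cluster mostly of 1 library may be that library rather than a cell type. The mitosis share was 0.428% in the dCD cells of cluster 1, 0.397% in those of cluster 3 and 0.423% in those of cluster 6, and 0.255% and 0.307% in the WT cells of clusters 2 and 4. Most dCD cells thus lay in clusters with more mitosis RNA than the main WT clusters.

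Only 3 clusters had at least 30 cells of both libraries, and they did not give 1 direction. In cluster 5, with *Vgll3*, *Ccl2* and *Prss23* among its leading genes (150 dCD and 153 WT cells), the dCD over WT ratio was 1.62 (1.58 to 1.67) for the mitosis share, with 22 of 22 members above 1, and 1.17 (1.12 to 1.21) for the S phase share, with 14 of 17. In cluster 2 it was 0.661 (0.615 to 0.711), with 1 of 22 members above 1, and 0.782 (0.718 to 0.851), with 3 of 17. Cluster 7 was named PGC-like, with *Dppa3*, *BC048679*, *Gstm3*, *Nanos3* and *Tdrd12* in the lead (104 dCD and 172 WT cells). There the ratio was 0.914 (0.888 to 0.941) for mitosis, with 9 of 22 members above 1, and 1.02 (0.984 to 1.06) for S phase, with 9 of 17. The counts of members above 1 within clusters were not made for all genes, so they have no share to be read against. By the ratios of the shares, the pooled difference did not hold within every cluster that both libraries filled. The name of cluster 7 was a close call. Its median fold was 3.73 for PGC, 3.43 for naive pluripotency and 3.17 for extraembryonic ectoderm markers. In the paper the PGCLC cluster was made up mostly of WT cells and held few dCD cells. Cluster 7 held 104 dCD beside 172 WT cells, so the values describe this cluster only. In cells outside both clusters named PGC-like (7 and 8) the pooled ratio was 1.51 for mitosis and 1.197 for S phase.

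Cluster 8 was named PGC-like with 6 of 7 PGC markers at least 2-fold higher, but its 10 leading genes held as many markers of primitive streak (*T*, *Fgf8*) as of PGC (*Prdm1*, *Dnd1*). In WT, the cells of both clusters named PGC-like carried more of both groups than the rest of their library. Cluster 7 over all other WT cells had a ratio of 1.61 (1.57 to 1.64) for mitosis and 1.31 (1.28 to 1.35) for S phase, and cluster 8 (*Lefty1*, *Igfbpl1*, *Fgf8*, *T*, *Psmb8*; 116 WT and 4 dCD cells), of 1.39 (1.35 to 1.43) and 1.32 (1.27 to 1.37). In dCD, cluster 7 over the other cells had 1.01 (0.9901 to 1.04) and 1.16 (1.12 to 1.198). These cells were picked in another way than the listed PGCLC of E14Tg2a, and their values are not compared with those. Low-mitosis cells were 1.15% (0.237% to 3.31%) of cluster 7, 6.897% of cluster 8, 3.23% of cluster 6, 29.1% of cluster 4 and 44.2% (40.01% to 48.5%) of cluster 2. The small endoderm or gut-like and endothelium-like clusters, of 37 and 32 cells, held 41.7% and 45.2%, and the 2-cell embryo-like cluster of 42 dCD cells had the highest mitosis share of all, 0.496%, beside an S phase share of 0.156%.

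**Figure D5:**
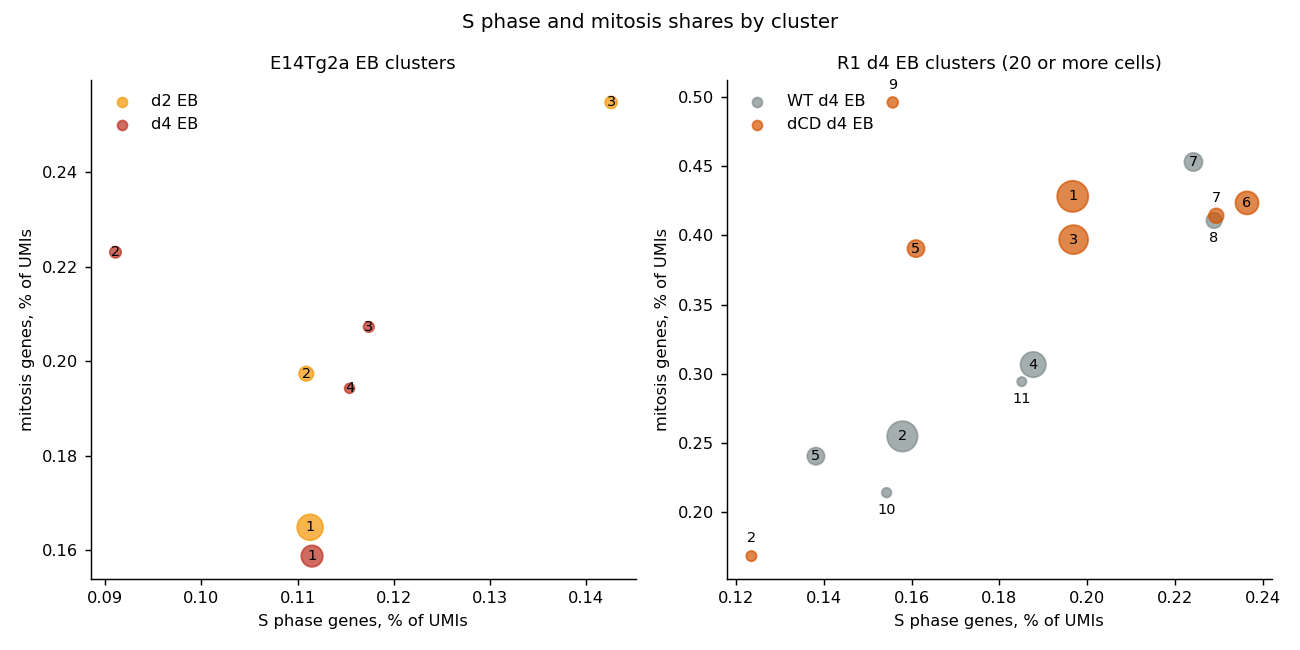
Share of S phase UMIs (x, %) and mitosis UMIs (y, %) in clusters of E14Tg2a EB cells (left) and of R1 d4 EB cells split by library where it gave 20 or more cells (right), with point area growing with the number of cells and cluster numbers on or beside the points. Among R1 clusters 2, 5 and 7, which both libraries fill, the dCD point lies below the WT point in 2 and 7 and above it in 5. The axes do not start at 0.

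The labels of the groups were checked by how the genes went together across the cells of a library, on thinned counts. The mean Pearson correlation between 2 mitosis members was 0.0873 in d1 EpiLC, 0.106 in d2 EpiLC, 0.131 in S+L ESC, 0.158 in EpiSC, 0.176 in 2i ESC, 0.1903 in d3 EpiLC, 0.297 in d2 EB and 0.436 in d4 EB, with 0.352 in WT and 0.318 in dCD. Between 2 S phase members it was 0.0482 to 0.1303 over the E14Tg2a libraries, and between a member of each group -0.0594 to 0.0182. Each group thus went with itself more than with the other, although S phase counts were sparse and their correlations weak. The sums of both groups were correlated at -0.465 in d2 EpiLC and -0.358 in d3 EpiLC, where cells high in one tended to be low in the other. The correlation was -0.181 in 2i ESC, -0.139 in S+L ESC, 0.12 in d1 EpiLC and 0.152 in EpiSC. In EB it was 0.24 on d2 and -0.0299 on d4 of E14Tg2a, and 0.389 in WT and 0.221 in dCD. Cells share library and depth, and genes are not independent, so no p is given.

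Of the members, *Ube2c* went most with the mitosis sum that contains it (mean r of 0.7505 over the 8 libraries), followed by *Cenpf* (0.617) and *Cenpa* (0.6102), and *Ttk* least (0.2198). *Ung* was the S phase member most opposed to the mitosis sum (-0.223). Outside the members, among 6180 genes, the genes most like the mitosis sum were *Cks2*, a subunit of CDK1 complexes (0.568), *Arl6ip1* (0.478), *Cdca3* (0.446), *Smc4*, a condensin subunit (0.433), *Ube2s* (0.432), *Hmgb2* (0.411), *Prc1*, of the central spindle (0.397), *Cdca8* (0.391), *H2afx* (0.386) and *Jpt1* (0.385). Those most like the S phase sum were *Ptma* (0.336), the chaperone gene *Hsp90aa1* (0.314), *Dut*, which clears dUTP (0.301), *Rpa2*, of the single-strand binding protein (0.296), the histone chaperone gene *Nasp* (0.292), *Hspd1* (0.29), *Ran* (0.286), *Hnrnpf* (0.284), *Uhrf1*, of maintenance methylation (0.282), and *Ccne1*, cyclin E1 (0.279). The variance over the mean of single members in d4 EB ran from 1.08 for *Mcm4* to 6.71 for *Ube2c*, and in d2 EpiLC *Ube2c* had 2.44.

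A further 36 S phase and 42 mitosis genes, none of them members, were counted for these phases. They were written from general knowledge with earlier results of these data known, so they are no independent check. At the 1.5-fold rule the other S phase genes had 9 higher and 1 lower in d2 EpiLC over 2i ESC, 0 higher and 13 lower in d3 over d2 EpiLC, 1 higher and 3 lower in S+L over 2i ESC, 1 higher and 1 lower in d4 over d2 EB, 4 higher and 3 lower in d2 PGCLC, 4 higher and 10 lower in d4 PGCLC and 2 higher and 1 lower in dCD over WT. All 36 were below d2 EpiLC in d3 EpiLC, with a median log2 ratio of -0.49. The other mitosis genes had 7 higher and 2 lower, 3 higher and 3 lower, 4 higher and 1 lower, 1 higher and 0 lower, 4 higher and 0 lower, 13 higher and 1 lower and 12 higher and 0 lower in the same order. Over all genes the shares higher and lower were, again in this order, 31.3% and 12.2%, 12.2% and 12.5%, 21.7% and 8.92%, 20.7% and 8.43%, 12.5% and 21.9%, 14.7% and 45.3%, and 15% and 9.78%. In dCD over WT 39 of the 42 other mitosis genes were above 0, with a median log2 ratio of 0.32.

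*Mybl2*, which codes for B-MYB, an activator of mitosis genes, had the largest ratio of these genes. It had 96.6 against 391 CPM, a ratio of 0.247, in d2 EpiLC over 2i ESC, 155 against 50.7 CPM, a ratio of 3.06, in d2 PGCLC over other cells, 299.6 against 51.7 CPM, a ratio of 5.79, in d4 PGCLC over other cells, and 171 against 68.05 CPM, a ratio of 2.51, in dCD over WT. It was lower in d2 EpiLC and higher in PGCLC and dCD. *Ccne2*, cyclin E2, was lower in d4 PGCLC and in dCD, with 7.59 against 31.8 CPM, a ratio of 0.238, in d4 PGCLC from 8 UMIs, and 13.2 against 27.1 CPM, a ratio of 0.488, in dCD over WT, but 29.2 against 14.9 CPM, a ratio of 1.95, in d4 over d2 EB. *Pttg1* (securin) had 177 against 86.8 CPM, a ratio of 2.04, in d3 over d2 EpiLC and 156 against 78.5 CPM, a ratio of 1.99, in dCD over WT.

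Further largest differences by the same rule were as follows. In d2 EpiLC over 2i ESC, *G2e3* had 34.4 against 8.34 CPM, a ratio of 4.13, *Dut* 517.7 against 238 CPM, a ratio of 2.17, and *E2f1* 28.6 against 51.2 CPM, a ratio of 0.559. In S+L ESC over 2i ESC, *G2e3* had 31.5 against 8.34 CPM, a ratio of 3.78, *Hells* 349 against 186 CPM, a ratio of 1.88, *Tubb4b* 211 against 366 CPM, a ratio of 0.577, and *Dscc1* 6.63 against 12.7 CPM, a ratio of 0.523. In d3 over d2 EpiLC, *Dscc1*, of an alternative clamp loader, had 9.16 against 26.3 CPM, a ratio of 0.349, *Ccne1* 89.3 against 193 CPM, a ratio of 0.463, and *Kif4* 19.5 against 11.6 CPM, a ratio of 1.68. The 2i ESC level of *G2e3* was thus below that of both other libraries, and *Dscc1* was on the low side with the S phase members in d3 EpiLC and S+L ESC. In d4 over d2 EB, *Nasp* had 146 against 234 CPM, a ratio of 0.625, *Mcm10* 17.8 against 26.4 CPM, a ratio of 0.674, and *Gtse1* 24.3 against 15.6 CPM, a ratio of 1.56. In PGCLC, *Nek2*, a centrosome kinase, had 25.6 against 10.8 CPM, a ratio of 2.36, and *Dscc1* 7.16 against 12.4 CPM, a ratio of 0.579 on d2, and *Psrc1*, a spindle protein, 93.9 against 32.2 CPM, a ratio of 2.92, and *Casp8ap2* 15.2 against 41.4 CPM, a ratio of 0.366 on d4. The low value of *Pole2* in d2 PGCLC (3.41 against 8.11 CPM, a ratio of 0.4205) rested on 10 UMIs. In dCD over WT, *Orc6*, an origin recognition subunit, had 109 against 130.3 CPM, a ratio of 0.837.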

How the data were processed

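The values the authors deposited are unscaled UMI counts of genes in single cells. The E14Tg2a counts came from Cell Ranger 2.1.0 on GRCm38 (the submitters' notes), with the 8 libraries aggregated to equal mapped reads. For R1 the authors kept cells in which 2000 or more genes were seen. The gene annotation is not given in the sources used here, and 0 columns of values were left unused. Of the 27998 Ensembl identifiers of E14Tg2a, 27645 were paired with symbols through a reference name table, and positions are from GENCODE vM21 (GRCm38). Cells were assigned to libraries by barcode suffix and to PGCLC by the supplement's list, and 8 barcode sequences occurred in more than 1 E14Tg2a library, 0 in both R1 libraries. The members and lists were chosen with earlier results of these data known.

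UMIs were summed over cells. Members called 1.5-fold had that ratio of CPM plus 1, among genes with at least 10 UMIs over both groups, and the same count over all genes stands beside them. Exact intervals at 95% cover counting error only. Some leading genes of clusters are not reported here. Cells were thinned without replacement (seed 1). Doublets were called with Scrublet in scanpy 1.11.5 (0.441% of 2i ESC to 7.61% of d2 EpiLC) and kept. EB cells were clustered by k-means on 20 principal components (3 and 4 clusters, scikit-learn 1.9.0), and R1 cells with Seurat 5.3.0 (2000 variable genes, 10 components, resolution 0.3) in R 4.3.3, leaving all cell cycle genes listed out of the variable genes. A cluster was named after the marker class with the highest median fold, if that was at least 2, at least 3 of its markers were 2-fold higher and at least 1 was among its 10 leading genes, with no other class having more. Python 3.11.15, numpy 2.4.6, scipy 1.17.1, pandas 2.3.3 and matplotlib 3.10.9 were used, and the intervals were tested on simulated data. Named outside the members are the 10 genes most correlated with each sum, the 2 largest rises and falls among other cell cycle genes with at least 50 UMIs in a comparison, and up to 5 leading genes by fold for a cluster. Alternatives changed pooling, depth, doublets, the sum, the total, the fold, the pseudocount, the filter and the cells compared.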

Additional observations from a re-analysis of the deposited data

Results flagged for a closer look

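The dCD over WT ratio of the mitosis share went opposite ways in clusters of R1 d4 EB, which is why it is listed here: it was 0.661 (0.615 to 0.711) in cluster 2, 1.62 (1.58 to 1.67) in cluster 5 and 0.914 (0.888 to 0.941) in cluster 7. For the S phase share it was 0.782 (0.718 to 0.851) in cluster 2 and 1.17 (1.12 to 1.21) in cluster 5. Cluster 2 held 35 dCD cells, and with 1 library on each side the difference between clusters was not tested.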

How the results depend on the processing

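Counting intervals are narrow here, so a ratio counts as moved when it left its 95% interval. Of 92 alternative ratios of a share, 45 stayed inside, 42 moved and 5 crossed 1, namely the S phase ratio of d2 PGCLC (mean over cells, and the changed total) and of d4 PGCLC (changed total), and the mitosis ratio of d4 over d2 EB (median member) and of d3 over d2 EpiLC (changed total). As the mean over cells, the S phase ratio was 1.01 for d2 PGCLC and 1.105 for dCD over WT and the mitosis ratio was 0.935 for d4 over d2 EB, 1.29 for d2 PGCLC and 1.02 for S+L over 2i ESC. On thinned cells, the S phase ratio was 0.997 for d2 PGCLC, 0.927 for d4 PGCLC and 0.617 for d3 over d2 EpiLC and the mitosis ratio was 0.947 for d4 over d2 EB, 1.27 for d2 PGCLC, 1.52 for d4 PGCLC, 1.39 for dCD over WT and 1.04 for S+L over 2i ESC. Without doublets, the mitosis ratio was 0.951 for d3 over d2 EpiLC. As the median over members, the S phase ratio was 1.31 for d2 EpiLC over 2i ESC, 0.645 for d3 over d2 EpiLC and 0.809 for S+L over 2i ESC and the mitosis ratio was 1.21 for d2 EpiLC over 2i ESC, 1.01 for d4 over d2 EB, 1.67 for d4 PGCLC, 1.38 for dCD over WT and 0.889 for d3 over d2 EpiLC. Without the member with most UMIs, the S phase ratio was 0.995 for d2 PGCLC and 0.628 for d3 over d2 EpiLC and the mitosis ratio was 1.102 for d2 PGCLC, 1.37 for d4 PGCLC and 1.02 for S+L over 2i ESC. With mitochondrial and ribosomal protein genes out of the total, the S phase ratio was 1.15 for d2 EpiLC over 2i ESC, 0.906 for d4 over d2 EB, 1.05 for d2 PGCLC, 1.08 for d4 PGCLC, 1.19 for dCD over WT, 0.641 for d3 over d2 EpiLC and 0.813 for S+L over 2i ESC and the mitosis ratio was 1.02 for d2 EpiLC over 2i ESC, 0.925 for d4 over d2 EB, 1.25 for d2 PGCLC, 1.82 for d4 PGCLC, 1.42 for dCD over WT, 1.04 for d3 over d2 EpiLC and 1.06 for S+L over 2i ESC. With the k-means cluster in place of the listed cells, the mitosis ratio was 1.08 for d2 PGCLC and 1.28 for d4 PGCLC. In cells with at least 3000 genes, the S phase ratio was 1.16 for dCD over WT and the mitosis ratio was 1.41 for dCD over WT. Outside the PGC-like clusters, the S phase ratio was 1.197 for dCD over WT and the mitosis ratio was 1.51 for dCD over WT. At a fold of 2, the members past the limit were 1 in place of 4 for d2 EpiLC over 2i ESC, 2 in place of 8 for d2 PGCLC, 6 in place of 18 for d4 PGCLC, 0 in place of 4 for dCD over WT, 2 in place of 12 for d3 over d2 EpiLC and 0 in place of 3 for S+L over 2i ESC. Centred on the median of all genes, they were 2 in place of 4 for d2 EpiLC over 2i ESC and 2 in place of 0 for d4 over d2 EB. For the changed fold and the centring, the shares of all genes were not counted. A pseudocount of 5 and no filter on low counts moved no count by over 1.5 times. The comparisons of d3 with d2 EpiLC and of S+L with 2i ESC were added after seeing the data. No paired analysis was possible because every condition was 1 library. No replicate could be left out for the same reason, so the spread between cultures is unknown, and depth limits the members with few UMIs in d4 PGCLC, such as *Cdc6*, *Cdc45* and *Ttk*. The cause of the changes was not tested beyond each alternative's construction.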
